A study of Rattus norvegicus with 4 samples.

Results

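Oligodendrocyte precursor cells (OPCs) of the rat orbitofrontal cortex were examined by single-nucleus RNA sequencing after methamphetamine (METH) or saline. They were taken as the nuclei with at least 500 genes and at most 5% mitochondrial UMIs that carried at least 1 UMI of Pdgfra and at least 5 UMIs over Pdgfra, Vcan, Arhgap31, Col5a3 and Itga9. A UMI, or unique molecular identifier, counts 1 captured transcript. Nuclei with any UMI of Enpp6, more than 2 UMIs over the oligodendrocyte genes Mog, Mobp and Opalin, more than 2 over the neuronal genes Slc17a7, Camk2a, Gad1 and Gad2, or any of the fibroblast gene Dcn were left out. Of 43903 nuclei that passed the gene and mitochondrial filters, 2083 met these conditions.

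OPCs are the dividing glial cells that give rise to oligodendrocytes, the cells that wrap axons in myelin, in the adult as well as in the developing brain. They carry Pdgfra, the receptor for platelet-derived growth factor, which drives their division and survival, and they receive synapses from neurons through glutamate and GABA receptors. On leaving the precursor state they switch off Pdgfra, pass through a short committed stage marked by Gpr17, Enpp6 and Bmp4, and then make myelin proteins such as Mbp.

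All animals were wild-type males of the Sprague-Dawley strain, 8 weeks of age. In a model of sensitization, they were injected intraperitoneally for 7 days with METH at 1 mg/kg, which raises extracellular dopamine, noradrenaline and serotonin, or with saline. Tissue of 4 animals per group was used and 2 libraries represent each group. The labels do not tie animals to libraries, so a p-value reflects variation among libraries that may be technical.

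The libraries held 595 OPCs of 9774 nuclei in METH replicate 1, 607 of 8565 in METH replicate 2, 351 of 17393 in saline replicate 1 and 530 of 8171 in saline replicate 2. Values for the 4 libraries are given below in this order. The median OPC held 1588, 1866, 1171 and 1796 UMIs from 1091, 1248, 849 and 1198.5 genes, and their summed counts came to 1071491, 1256277, 482218 and 1034395 UMIs. Saline replicate 1 stood apart, with the most nuclei, the fewest UMIs per nucleus and the fewest OPCs. The median mitochondrial share of OPC UMIs was 0.163%, 0.0847%, 0.120% and 0.110%. At most 1 OPC barcode was shared by any pair of libraries, 1 between METH replicate 1 and saline replicate 1 and 1 between METH replicate 2 and saline replicate 2. By a doublet score that marks nuclei resembling mixtures, 7.73%, 5.93%, 7.12% and 4.72% of OPCs stood among the highest of their library.

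The genes that chose the nuclei are described without a test. The condition on Pdgfra left 945, 952, 919 and 800 nuclei, and the condition on the 5 genes together left 702, 711, 424 and 603, so that it removed the largest number in saline replicate 1. The median OPC carried 10, 13, 7 and 12 UMIs over the 5 genes, and the median for Pdgfra alone was 2, 2, 1 and 2. Vcan, a chondroitin sulfate proteoglycan of the cell surface and matrix, was detected in 89.2% to 94.3% of OPCs, and Arhgap31, a GTPase-activating protein, in 87.7% to 96.2%. Col5a3, a fibrillar collagen chain, was detected in 51.6% to 74.0% and Itga9, an integrin subunit, in 47.6% to 77.1%, in both cases with saline replicate 1 the lowest. Just inside the threshold, with 5 UMIs over these genes, stood 40, 22, 64 and 24 nuclei, with medians of 1200, 1428, 1007.5 and 1262 UMIs. Just outside, with 4, stood 24, 25, 71 and 13, with medians of 1030, 1171, 928 and 1109.

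The label was checked against lineage genes that the selection did not use. Levels are given as CPM, the usual counts-per-million scaling of a population's summed counts in a library, and are compared only between populations for 1 gene at a time, since they are not scaled to transcript length. Cspg4, the NG2 proteoglycan by which OPCs are commonly stained, lay at 178 to 265 CPM in OPCs, against 17.4 to 24.4 in mature oligodendrocytes and at most 4.13 in astrocytes. The transcription factor Sox10, which marks the whole oligodendrocyte lineage, lay at 263 to 312 CPM in OPCs and 282 to 317 in mature oligodendrocytes, with astrocytes at 4.13 to 6.22. Its lineage partner Olig2 was at 78.8 to 97.6 CPM in OPCs, 23.2 to 32.0 in mature oligodendrocytes and 0.777 to 1.73 in excitatory neurons. Ptprz1, a receptor phosphatase that is also a chondroitin sulfate proteoglycan, reached 3799 to 4996 CPM in OPCs, against 1659 to 1900 in astrocytes and 105 to 238 in mature oligodendrocytes. C1ql1, a secreted C1q-like protein, was at 172 to 268 CPM in OPCs and at most 97.3 in the populations compared.

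The comparison populations were chosen from the same libraries by marker genes of their own and carried no Pdgfra UMI. They were 168 Enpp6-positive nuclei, 2545 mature oligodendrocytes, 993 astrocytes, 936 microglia and 13573 excitatory neurons. The Enpp6-positive nuclei already held Mbp at levels near those of mature oligodendrocytes, as given below. Of 22 OPC identity genes outside the selection with a value, 11 were higher in every OPC library than in any library of all 5 populations, and 19 were higher than in any library of astrocytes, microglia and excitatory neurons. The 8 that separated OPCs from those 3 populations but not from the lineage included Sox10, Olig1, Olig2, Sox6 and Tnr. Tnr, the extracellular matrix protein tenascin-R, lay at 1250 to 1531 CPM in OPCs and was higher still, at 2320 to 4125, in Enpp6-positive nuclei. These comparisons are descriptions, because the populations were chosen by their expression.

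**Figure D1:**
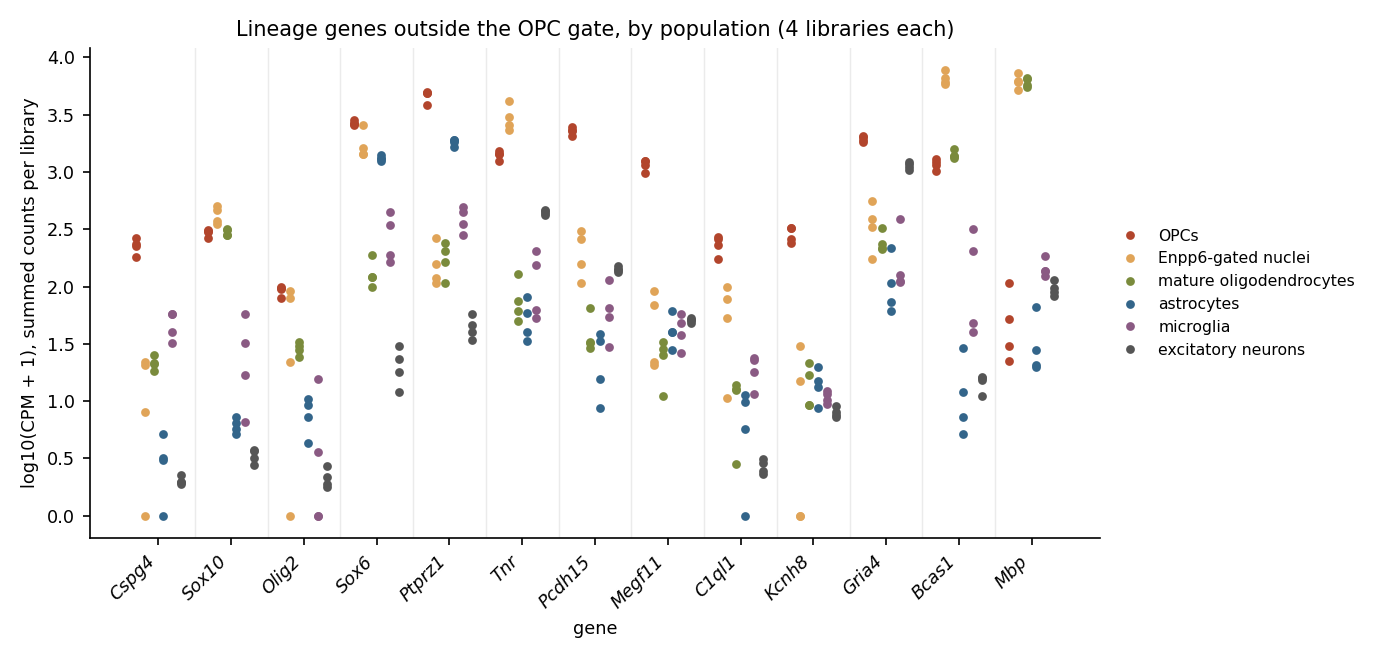
Level of 13 genes that did not choose the OPCs, as log10(CPM + 1) of summed counts, with 1 point per library and 1 colour per population. Cspg4, Ptprz1, Pcdh15, Megf11, C1ql1, Kcnh8 and Gria4 are highest in OPCs, Sox10 is as high in the other oligodendrocyte lineage populations, and Mbp is low in OPCs.

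Mbp, the myelin basic protein, lay at 51.3, 21.5, 106 and 29.0 CPM in OPCs, against 5156 to 7363 in Enpp6-positive nuclei and 5462 to 6638 in mature oligodendrocytes. It was highest in saline replicate 1 and lowest in METH replicate 2. Tcf7l2, a transcription factor of the committed stage, lay at 83.1 to 112 CPM in OPCs and at 1082 to 1732 in Enpp6-positive nuclei. Bcas1, which is also used to mark newly forming oligodendrocytes, was already at 1018 to 1299 CPM in OPCs, against 1319 to 1584 in mature oligodendrocytes and 5819 to 7685 in Enpp6-positive nuclei.

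Among ionotropic glutamate receptor subunits and their auxiliary proteins, 6 of 23 were higher in every OPC library than in any library of another population. The share of all genes for which this holds was not counted. The list counts here and above therefore cannot tell whether a list stands out. Gria4, an AMPA receptor subunit, lay at 1837 to 2069 CPM in OPCs, against 1034 to 1227 in excitatory neurons and at most 551 elsewhere. Grin3a, an NMDA receptor subunit, lay at 334 to 406 CPM in OPCs and at most 41.6 in the other populations. Grik1, a kainate receptor subunit, lay at 450.0 to 509 CPM against at most 176. Gria2, the subunit that limits the calcium entry of AMPA receptors, did not separate OPCs, with 2468 to 2547 CPM against 2442 to 2635 in excitatory neurons. No GABA receptor subunit of 15 had its highest levels in OPCs by this count; Gabrb1 lay at 629 to 761 CPM, below the 2776 to 3311 of astrocytes. Kcnh8, a voltage-gated potassium channel, lay at 236 to 323 CPM in OPCs and at most 29.0 in the other populations.

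The same count gave 9 of 32 genes of proteoglycans and matrix and 4 of 36 of axon guidance and migration. It gave 4 of 28 of growth factor signalling inside the cell and 3 of 24 of the Notch pathway. As the share over all genes was not counted, neither these counts nor those below tell whether a list stands out. Dcc, the netrin receptor, lay at 1197 to 1422 CPM in OPCs and at most 545 elsewhere, and its ligand Ntn1 lay at 230.2 to 316 against at most 187. Nf1, which switches off Ras and whose loss causes neurofibromatosis, lay at 876 to 919 CPM in OPCs and at most 811 elsewhere. Dll1, a Notch ligand, lay at 78.0 to 98.6 CPM against at most 46.5. Ccnd1, the cyclin that drives entry into the cell cycle, lay at 93.3 to 114 CPM against at most 57.9. Oprk1, the kappa opioid receptor, was the only opioid or cannabinoid gene of 16 in this count, at 4.15 to 12.6 CPM against at most 0.654. These levels rest on few UMIs. The smallest comparison sums could miss them, with 51396 UMIs in Enpp6-positive nuclei and 88016 in microglia of saline replicate 1. Grin3a, Grik1, Dcc, Ntn1, Nf1, Dll1, Ccnd1 and Oprk1 were chosen for mention after their values were seen. None of 35 genes of dopamine and other monoamine receptors, transporters and enzymes was highest in OPCs in this way.

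OPCs also differed among themselves. Of the nuclei, 27, 27, 17 and 20 carried at least 2 UMIs over 8 mitotic genes (Mki67, Top2a, Cenpf, Kif11, Kif15, Tpx2, Cdk1 and Bub1), or 4.54% (95% exact Clopper-Pearson interval 3.01 to 6.53), 4.45% (2.95 to 6.41), 4.84% (2.85 to 7.64) and 3.77% (2.32 to 5.77). Such nuclei were deeper than the rest, with a median of 2039 against 1563 UMIs in METH replicate 1 and 1430 against 1162 in saline replicate 1. After each nucleus was thinned to 1000 UMIs, which left out 48, 24, 115 and 19 shallower OPCs, the shares were 2.56%, 2.06%, 4.66% and 2.54%. Top2a, the topoisomerase that untangles DNA in dividing cells, lay at 29.9 to 34.8 CPM in OPCs and at most 10.5 in the other populations. The intervals cover counting error only.

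Top2a was also among the genes with the highest ratio of variance to mean between OPCs. In nuclei thinned to 1000 UMIs, its Fano factor, the variance over the mean, was 1.65 to 2.07 over the 4 libraries, against a median of 0.964 over 5985 genes for the lowest value of a gene. Nrxn3 (2.04 to 2.34) and Lrrtm4 (2.02 to 2.71), which code for partners in synaptic adhesion, had a higher lowest Fano factor than Top2a. Both were found in over 90% of thinned OPCs, and their means were far above that of Top2a. The factor was not adjusted for the mean, so it cannot tell which of these genes was more uneven. Srgap2 (1.65 to 2.08), which shapes membranes in migrating and branching cells, was found in 27.3% to 39.4%, and Grm3 (1.55 to 2.09), a metabotropic glutamate receptor, in 5.28% to 20.3%. Arhgap15 (1.82 to 3.01) and Inpp5d (1.40 to 2.66) are genes of blood-derived and microglial cells; Inpp5d was found in 2.06% to 5.51% of thinned OPCs. OPCs with at least 1 UMI of Csf1r, Cx3cr1, P2ry12, Inpp5d or Dock8, the genes that chose the microglia, made up 9.08%, 8.90%, 9.69% and 6.79%. Inpp5d was chosen for mention after its values were seen, the other genes by their rank.

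Gpr17, the receptor of the committed stage, was almost absent from the OPCs: it was found in 4 of 595, 5 of 607, 6 of 351 and 4 of 530, or 0.672% (0.183 to 1.71), 0.824% (0.268 to 1.91), 1.71% (0.630 to 3.68) and 0.755% (0.206 to 1.92). All 4 intervals overlap. The selection left out nuclei with Enpp6, which marks the same stage, so it could itself lower these shares. They describe the selected nuclei only. Astrocytes and microglia, which should lack the gene, had no Gpr17 UMI, at library medians of 1196.5 to 2109 and of 1071 to 1199 UMIs.

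The share of OPCs among nuclei was 6.09% (exact 95% interval 5.62 to 6.58) and 7.09% (6.55 to 7.65) in the METH libraries, and 2.02% (1.81 to 2.24) and 6.49% (5.96 to 7.04) in the saline libraries. The METH mean was 6.59% ± 0.707 (SD, n = 2) and the saline mean 4.25% ± 3.16 (SD, n = 2). The groups overlapped, since saline replicate 2 lay between the METH libraries, and only saline replicate 1 was low. Permuting the 4 libraries exactly, two-sided, gave p = 0.667, and the smallest p this design allows is 0.333. The difference of 2.34 percentage points came to 0.101 without saline replicate 1. Because the selection counts UMIs, it was repeated after every nucleus had been thinned to 1000 UMIs, with 1184, 853, 3311 and 784 shallower nuclei left out. The shares were then 4.11%, 5.12%, 1.15% and 4.47%, and saline replicate 1 was still the lowest.

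**Figure D2:**
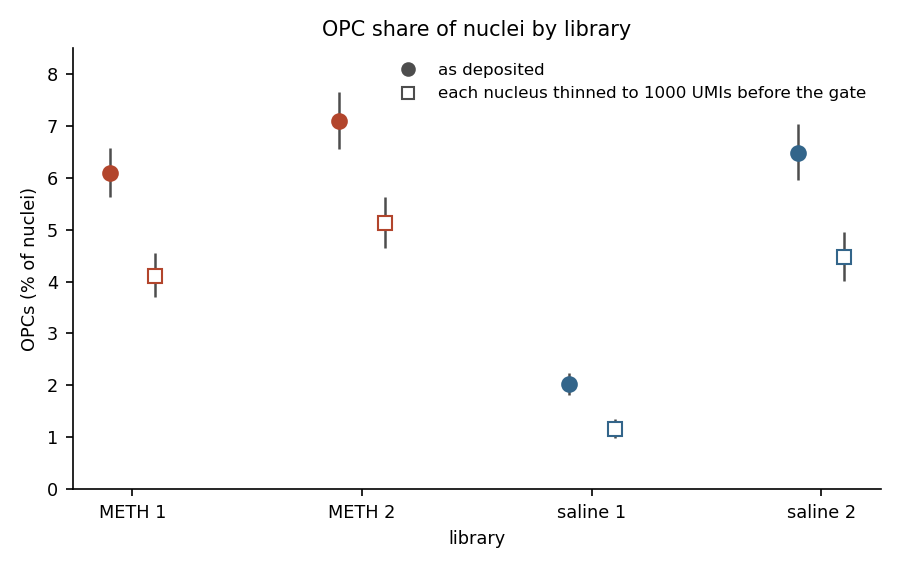
OPCs as a percentage of the nuclei of each library, with exact 95% intervals that cover counting error only; METH is red and saline blue, and open squares are the same selection on nuclei thinned to 1000 UMIs. Saline replicate 1 is low in both, at 2.02% and 1.15%, and saline replicate 2, at 6.49% and 4.47%, lies between the METH libraries.

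To ask which OPC genes differ after METH, counts were summed over the OPCs of each library and tested with edgeR's quasi-likelihood test, two-sided, with Benjamini-Hochberg adjustment over all 9619 genes tested. Summed counts cannot tell more nuclei with a transcript from more of it per nucleus. Cst3, Itih3 and Prodh1 were higher after METH and no gene was lower. The 3 calls are 0.0312% of the genes tested. At an unadjusted p under 0.05 there were 430 genes, 197 higher and 233 lower, and the median log2 fold change over all genes was -0.00038, with 49.9% of genes above 0. Both METH values lay on 1 side of both saline values in 33.2% of the genes. DESeq2 called no gene and had 52 at an unadjusted p under 0.05.

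**Figure D3:**
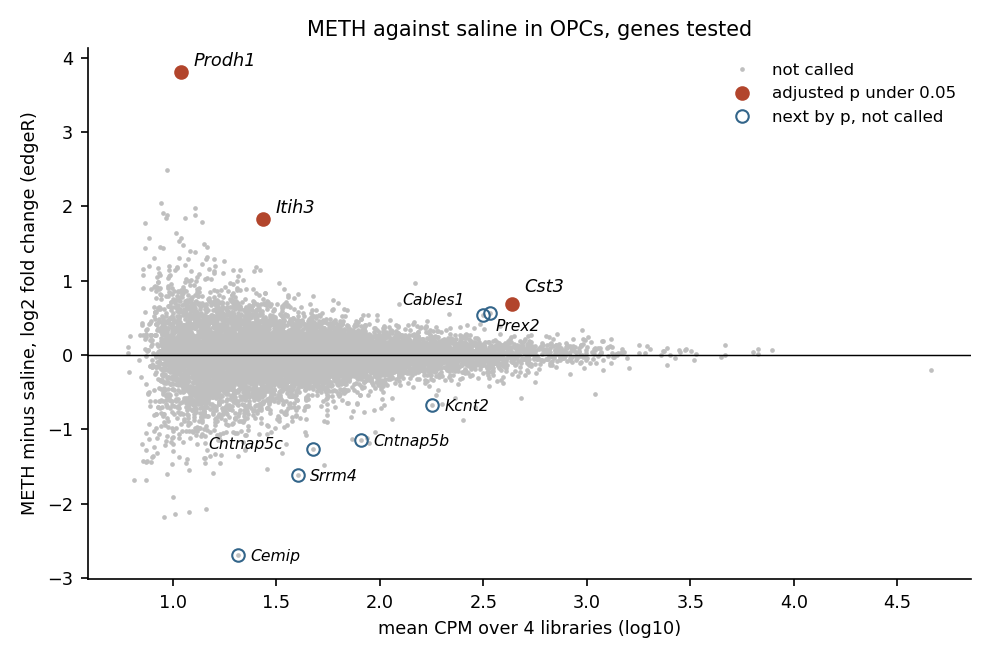
METH minus saline log2 fold change of each of the 9619 genes tested in OPCs against its mean CPM on a log10 axis. Filled red points mark the 3 genes called, Prodh1, Itih3 and Cst3, all higher after METH, and open blue circles the next genes by p, which did not pass.

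Cst3 codes for cystatin C, a secreted inhibitor of lysosomal cysteine proteases that glia make in abundance. It lay at 584 and 490 CPM in the METH libraries and at 342 and 327 in the saline libraries. The METH values lay above both saline values, and each pair was close. The log2 fold change was 0.68 (SE 0.118, edgeR adjusted p = 0.0333). The gene stayed called in 13 of 20 alternative analyses, and its fold change lay between 0.55 and 0.82. The lower value was without METH replicate 1, where edgeR's adjusted p was 0.305.

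Itih3, a heavy chain of the inter-alpha-trypsin inhibitors that bind hyaluronan in the matrix, lay at 43.9, 41.4, 12.4 and 11.6 CPM. Its log2 fold change was 1.83 (SE 0.346, edgeR adjusted p = 0.0421). Prodh1, listed under the name of proline dehydrogenase, the first enzyme of proline breakdown in mitochondria, had 23 and 24 UMIs in the METH libraries and 1 and 1 in the saline libraries. The ratio of its pooled CPM was 15.3, with a counting interval of 4.01 to 130.1, and edgeR's adjusted p was 0.0415. That interval leaves out variation between libraries and nuclei, and the 47 METH UMIs came from 33 nuclei. Both genes were thus rare in OPCs, and in both the groups did not overlap. Each was called in 6 of the alternatives that could test it, which numbered 18 for Itih3 and 17 for Prodh1. Without the nuclei of the highest doublet scores, neither gene had counts enough to be tested in OPCs. Neither passed without METH replicate 1, METH replicate 2 or saline replicate 2.

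Both genes are abundant in astrocytes, where Itih3 lay at 509 to 844 CPM and Prodh1 at 231 to 321. Of the 16 astrocyte markers with a row, 10 were tested in OPCs, none was called and all 10 were above 0 in log2 fold change, with a median of 0.70. Their summed level in OPCs was 2091 and 1977 CPM in METH and 1576 and 1624 in saline, and none was at 0. Mlc1, a membrane protein of astrocyte endfeet, lay at 24.3, 15.9, 6.22 and 4.83 CPM, and Gja1, the gap junction protein connexin 43, at 60.7, 56.5, 45.6 and 27.1. OPCs with at least 1 UMI of Aqp4, Gja1, Slc39a12 or Ntsr2, the genes that chose the astrocytes, made up 10.4% (8.08 to 13.2) and 11.2% (8.80 to 13.99) in METH and 5.98% (3.74 to 9.0) and 5.47% (3.69 to 7.76) in saline. They held most of the OPCs with Itih3, 16 of 22, 15 of 24, 1 of 5 and 5 of 6, and many of those with Prodh1, 9 of 18, 12 of 15, 0 of 1 and 1 of 1. In the remaining OPCs Itih3 had 6, 9, 5 and 1 UMIs and Prodh1 10, 3, 1 and 0, too few to be tested.

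For Cst3 most UMIs came from the other OPCs: 547 of 626, 547 of 615, 149 of 165 and 324 of 338 were in nuclei without a UMI of the 4 astrocyte genes. In them alone its log2 fold change was 0.71 (edgeR adjusted p = 0.0262). This selection and the microglial one below were chosen after the data were seen. Both are among the 13 alternatives that called Cst3. Microglia held the gene at 3251, 2636, 1352 and 2824 CPM, with no separation of the groups. Of the microglia markers in OPCs, 3 of 12 tested were above 0, with a median of -0.13, and their summed level was 628, 534, 664 and 606 CPM, with none at 0. Without OPCs that had a UMI of a microglial selection gene, Cst3 differed by 0.72 (edgeR adjusted p = 0.00066). In mature oligodendrocytes Cst3 lay at 799, 733, 331 and 435 CPM, and in excitatory neurons at 151, 136, 70.6 and 80.5, again with both METH libraries above both saline libraries.

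The next genes by p on the higher side, taken among those whose groups do not overlap, did not pass the test. Cables1, which links cyclin-dependent kinases to the Abl kinase, lay at 383, 430, 249 and 293 CPM, a log2 difference of 0.56 (SE 0.121, edgeR adjusted p = 0.177). Prex2, an exchange factor for the GTPase Rac, lay at 405, 335, 284 and 231 CPM, a difference of 0.54 (SE 0.132, edgeR adjusted p = 0.329). Without saline replicate 2 Cables1 was called (0.70, edgeR adjusted p = 0.00051), and without saline replicate 1 Prex2 was (0.68, edgeR adjusted p = 0.00044). Prex2 differed by 0.20 without the nuclei of the highest doublet scores and by 0.29 in OPCs without a UMI of the 4 astrocyte genes. Such OPCs held 506 of its 855 UMIs in METH and 292 of 376 in saline. Prex2 is also an astrocyte gene in these libraries, at 3038 to 3941 CPM there, whereas Cables1 lay at 206 to 424 CPM in astrocytes, close to its level in OPCs.

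No gene was called lower, and the 5 with the smallest p among those whose groups do not overlap are given as values. Cntnap5c lay at 27.1, 26.3, 85.0 and 51.2 CPM, a log2 difference of -1.26 (SE 0.275, edgeR adjusted p = 0.177). Its relative Cntnap5b lay at 55.1, 42.2, 143 and 84.1 CPM, a difference of -1.14 (SE 0.241, edgeR adjusted p = 0.225); both code for contactin-associated adhesion proteins. Srrm4, which governs neuronal microexon splicing, lay at 25.2, 12.7, 78.8 and 43.5 CPM, a difference of -1.61 (SE 0.350, edgeR adjusted p = 0.258). In these 3 genes saline replicate 1 was the highest library. Without saline replicate 2 all 3 were called, with differences of -1.68, -1.57 and -2.09, and without METH replicate 1 Cntnap5b (-1.36) and Srrm4 (-2.17) were. The values were far smaller in OPCs with no UMI of the oligodendrocyte and neuronal genes used in the selection, at -0.32, 0.03 and -0.53, and none was called there. When the OPCs were selected after thinning, Cntnap5c turned to 1.36, and Cntnap5b and Srrm4 lay at -0.20 and -1.02.

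Kcnt2, a sodium-activated potassium channel, lay at 137, 132, 259 and 183 CPM, a difference of -0.67 (SE 0.157, edgeR adjusted p = 0.301). Cemip, a protein of hyaluronan breakdown, lay at 9.33, 3.18, 16.6 and 53.2 CPM, a difference of -2.69 (SE 0.549, edgeR adjusted p = 0.307). In saline replicate 2, 25 of the 55 Cemip UMIs and 47 of the 87 Cntnap5b UMIs came from 1 nucleus each. Kcnt2 was called without saline replicate 2 (-0.95, edgeR adjusted p = 2.38e-05), and Cemip without METH replicate 1 (-3.55, edgeR adjusted p = 3.41e-05) or saline replicate 1 (-3.12, edgeR adjusted p = 4.19e-10). With at least 8 marker UMIs they differed by -0.43 and -0.59, without a call. All 5 genes were higher in excitatory neurons than in OPCs, at 263 to 437 CPM for Cntnap5c, 1355 to 1629 for Cntnap5b, 260.3 to 332 for Srrm4, 819 to 876 for Kcnt2 and 65.4 to 74.8 for Cemip. The summed level of excitatory neuron markers in OPCs was 1574 and 1393 CPM in METH and 1804 and 1472 in saline, and 8 of the 12 tested were below 0, with a median of -0.11. Its part in these values was not tested.

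**Figure D4:**
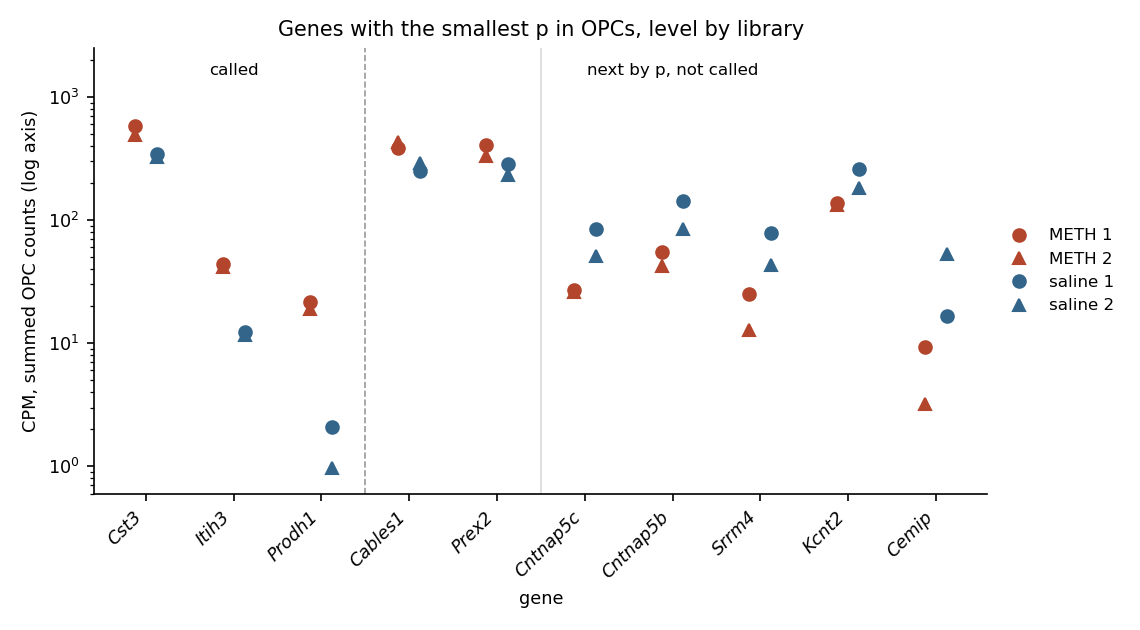
Level of the 10 genes named by the smallest p, as CPM of summed OPC counts on a log axis, with METH in red, saline in blue, circles for replicate 1 and triangles for replicate 2. The 3 genes left of the dashed line passed the test; the other 7 were picked among the genes whose groups do not overlap, as they did not in 33.2% of all genes tested.

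The number of calls rested on single libraries. Without saline replicate 2, 161 genes were called, 33 higher and 128 lower. Without saline replicate 1 there were 15, 12 higher and 3 lower, and without METH replicate 1 there were 12, 2 higher and 10 lower. No gene was called with at least 1000 genes per nucleus or without robust estimation of the spread.

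No OPC identity gene outside the selection was called. The genes that chose the OPCs, Pdgfra among them, were left out of the test. Of 21 identity genes tested, 19 lay above 0 and the median log2 fold change was 0.09, against -0.00038 over all genes. Their summed level was 23405, 23360, 20113 and 24006 CPM, with saline replicate 1 the lowest. In the values that follow, the first number in parentheses is the METH minus saline log2 fold change. Cspg4 lay at 227, 265, 178 and 236 CPM (0.21, SE 0.140), and Ptprz1 at 4888, 4837, 3799 and 4996 (0.14, SE 0.106). For both, the METH and saline libraries overlapped; without saline replicate 2, Ptprz1 was called higher (0.35, edgeR adjusted p = 0.0163), and without saline replicate 1 it lay at -0.04. Sox10 (0.05, SE 0.122), Olig2 (0.06, SE 0.177), Tnr (0.02, SE 0.101) and Pcdh15, an adhesion protein of the cadherin family (SE 0.0970), were within 1 SE of no change. Olig1, the partner of Olig2, had the smallest p of the list, at 105, 75.6, 45.6 and 78.3 CPM (0.42, SE 0.224).

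Growth factor receptors and the pathway below them were tested because they set OPC division and survival. None of 13 receptors was called, 6 lay above 0 and the median was -0.03. Pdgfra was not among them, since it chose the OPCs and was not tested. Igf1r, the receptor for insulin-like growth factor 1, lay at 212, 224, 284 and 230.1 CPM (-0.21, SE 0.134), and Erbb4, a neuregulin receptor, at 1042, 998, 919 and 1005 (0.08, SE 0.0991). None of 11 ligands was called, 7 lay above 0 and the median was 0.04. Of 26 genes of signalling inside the cell none was called, 9 lay above 0 and the median was -0.05. Pik3ca, a catalytic subunit of phosphoinositide 3-kinase, lay at 49.5, 56.5, 70.5 and 78.3 CPM (-0.51, SE 0.208), while the regulatory subunit Pik3r1 lay at 472, 471, 355 and 428 (0.25, SE 0.114). The groups did not overlap in either, and neither passed the test.

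Genes of the step toward oligodendrocytes were likewise not called. Of 13 genes of commitment and early differentiation, 9 lay above 0, with a median of 0.07; Itpr2, a calcium release channel of the endoplasmic reticulum, lay at 220.3, 252, 166 and 201 CPM (0.33, SE 0.138), and Bmp4 at 35.5, 58.1, 47.7 and 27.1 (0.46, SE 0.304). Fyn, a kinase of early differentiation, lay at 528, 516, 471 and 544 CPM (0.02, SE 0.110). Of 15 myelin genes 9 lay above 0, with a median of 0.04. Mbp differed by -0.69 with an SE of 1.02, which is too wide to tell a change from none, and without saline replicate 2 it was called lower (-1.58, edgeR adjusted p = 2.82e-05), while without saline replicate 1 it lay at 0.29. Of 19 inhibitors of differentiation and progenitor transcription factors, none was called and 15 lay below 0, with a median of -0.12. Id2, which holds back differentiation factors, lay at 24.3, 23.1, 43.5 and 30.9 CPM (-0.59, SE 0.312), and Nfia, a glial transcription factor, at 1323, 1234, 1043 and 1183 (0.19, SE 0.0992).

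In the Notch pathway, through which axons hold OPCs in the precursor state, none of 15 genes was called and 7 lay above 0, with a median of -0.06. Rbpj, the DNA-binding partner of Notch, lay at 86.8, 72.4, 109.9 and 101.5 CPM (-0.40, SE 0.179). None of 20 BMP and TGF-beta genes was called, and 11 lay above 0. None of 20 Wnt genes was called either, with 11 above 0; Lgr4, a receptor for R-spondins, lay at 126, 97.9, 87.1 and 76.4 CPM (0.47, SE 0.183). Of 27 genes of chondroitin sulfate proteoglycans and matrix 19 lay above 0, with a median of 0.14 and no call. Csgalnact1, which starts chondroitin sulfate chains, lay at 78.4, 76.4, 72.6 and 51.2 CPM (0.39, SE 0.212).

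Receptors for transmitters were not called. Of 22 AMPA, kainate and NMDA receptor genes 12 lay above 0, with a median of 0.01. Gria2 (SE 0.0911) differed by less than 1 SE, and Gria4 lay at 2069, 2012, 1837 and 1900 CPM (0.12, SE 0.0923). The smallest p values of the list belonged to the NMDA receptor subunit Grin2a, at 30.8, 23.1, 80.9 and 41.6 CPM (-1.07, SE 0.309), and to Cacng3, an auxiliary protein of AMPA receptors, at 18.7, 16.7, 62.2 and 21.3 (-1.04, SE 0.432). In both saline replicate 1 was the highest library. Grm8, a metabotropic receptor, lay at 93.3, 62.9, 158 and 102.5 CPM (-0.68, SE 0.226). Without saline replicate 2 these 3 genes were called lower, with differences of -1.60, -1.82 and -1.04. Without saline replicate 1 they lay at -0.64, -0.27 and -0.41 with no call, and in OPCs with no UMI of the oligodendrocyte and neuronal selection genes at 0.25, -0.57 and -0.05. Of 11 GABA receptor subunits 5 lay above 0, with a median of -0.05; Gabrb1 lay at 734, 673, 761 and 629 CPM (0.03, SE 0.111).

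Of 31 ion channel genes none was called and 12 lay above 0, with a median of -0.08. Kcnh8 lay at 320.1, 323, 236 and 259 CPM (0.36, SE 0.121), with both METH libraries above both saline libraries. The calcium channel subunit Cacna1d lay at 209, 204, 292 and 253 CPM (-0.39, SE 0.130), with both METH libraries below. Kcnj10, the inward rectifier Kir4.1 that sets the resting potential of glia, lay at 63.5, 49.4, 39.4 and 38.7 CPM (0.52, SE 0.245). None of the 3 passed the test.

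METH acts through dopamine and other monoamines, and their receptors were scarce in OPCs. Of 38 monoamine genes, 9 had counts enough to be tested, none was called, and 11 had no UMI in any OPC library, among them the dopamine receptor Drd1 and the dopamine transporter Slc6a3. A count of 0 allows up to 3 UMIs per library. Drd2 had 2, 3, 1 and 2 UMIs. Adra1a, the adrenergic receptor alpha-1A, was the best measured of those named, at 55.1, 59.7, 70.5 and 56.1 CPM (-0.10, SE 0.218), with overlapping groups. The serotonin receptors Htr4, at 5.60, 2.39, 12.4 and 20.3 CPM (-2.14, SE 0.581), and Htr2c, at 8.40, 3.18, 18.7 and 12.6 (-1.37, SE 0.575), were lower in both METH libraries on few counts and did not pass. The adenosine receptor Adora1 lay at 70.0, 74.0, 41.5 and 50.3 CPM (0.61, SE 0.217) and the ATP-gated channel P2rx7 at 83.1, 78.0, 112 and 107 (-0.44, SE 0.173), without passing the test.

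Genes of cell activity, hormone response and stress gave no call. Fos had 3, 1, 4 and 1 UMIs and Arc 7, 8, 2 and 8, too few to be tested; of 10 immediate early genes that were tested, 9 lay below 0, with a median of -0.18 and a summed level for the whole list of 434, 426, 649 and 429 CPM. Saline replicate 1 was the highest there and saline replicate 2 lay between the METH libraries. Of 14 genes of the glucocorticoid response 11 lay above 0, with a median of 0.17. Fkbp5, which the hormone induces and which holds its receptor in check, lay at 16.8, 40.6, 14.5 and 12.6 CPM (1.14, SE 0.432), with METH replicate 2 alone well above the rest. Fam107a, a stress-induced actin regulator, lay at 11.2, 21.5, 2.07 and 6.77 (1.65, SE 0.576), and the kinase Sgk1 at 133.5, 139.3, 101.6 and 116 (0.30, SE 0.156). The receptor Nr3c1 itself overlapped between groups, at 70.9, 45.4, 47.7 and 48.3 CPM.

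Of 12 oxidative stress genes 10 lay above 0, with a median of 0.21; Gpx4, which removes lipid peroxides, lay at 28.9, 23.9, 16.6 and 12.6 CPM (0.91, SE 0.377). Of 11 mitochondrially encoded genes 9 lay below 0, with a median of -0.16, and their summed level was 2357, 1307, 1823 and 2239 CPM, with METH replicate 2 the lowest and METH replicate 1 the highest. Of 19 genes of the cystatin and lysosome list 15 lay above 0, with a median of 0.16, and Cst3 was its only call; Npc2, a cholesterol carrier of lysosomes, lay at 68.1, 52.5, 39.4 and 46.4 CPM (0.45, SE 0.236). Of 27 subunits of the SWI/SNF chromatin remodeller, which OPCs need to differentiate, 14 lay above 0, with a median of 0.01; Smarcc1 lay at 245, 224, 176 and 217 CPM (0.22, SE 0.136).

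No gene of the cell cycle was called. Of 14 S phase genes 11 lay above 0, with a median of 0.27, and of 19 genes of G2 and mitosis 7 did, with a median of -0.10, against 49.9% of all genes. The median of the latter lay between -0.54 and 0.08 over the 20 alternatives. Pola1, the catalytic subunit of DNA polymerase alpha, lay at 211, 210.1, 174 and 155 CPM (0.37, SE 0.139). Cenpf, a kinetochore protein, lay at 14.9, 15.9, 33.2 and 24.2 CPM (-0.82, SE 0.361), and Tpx2, a spindle protein, at 18.7, 9.55, 27.0 and 24.2 (-0.86, SE 0.393). Top2a overlapped between the groups, at 29.9, 33.4, 31.1 and 34.8 CPM (-0.08, SE 0.288).

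**Figure D5:**
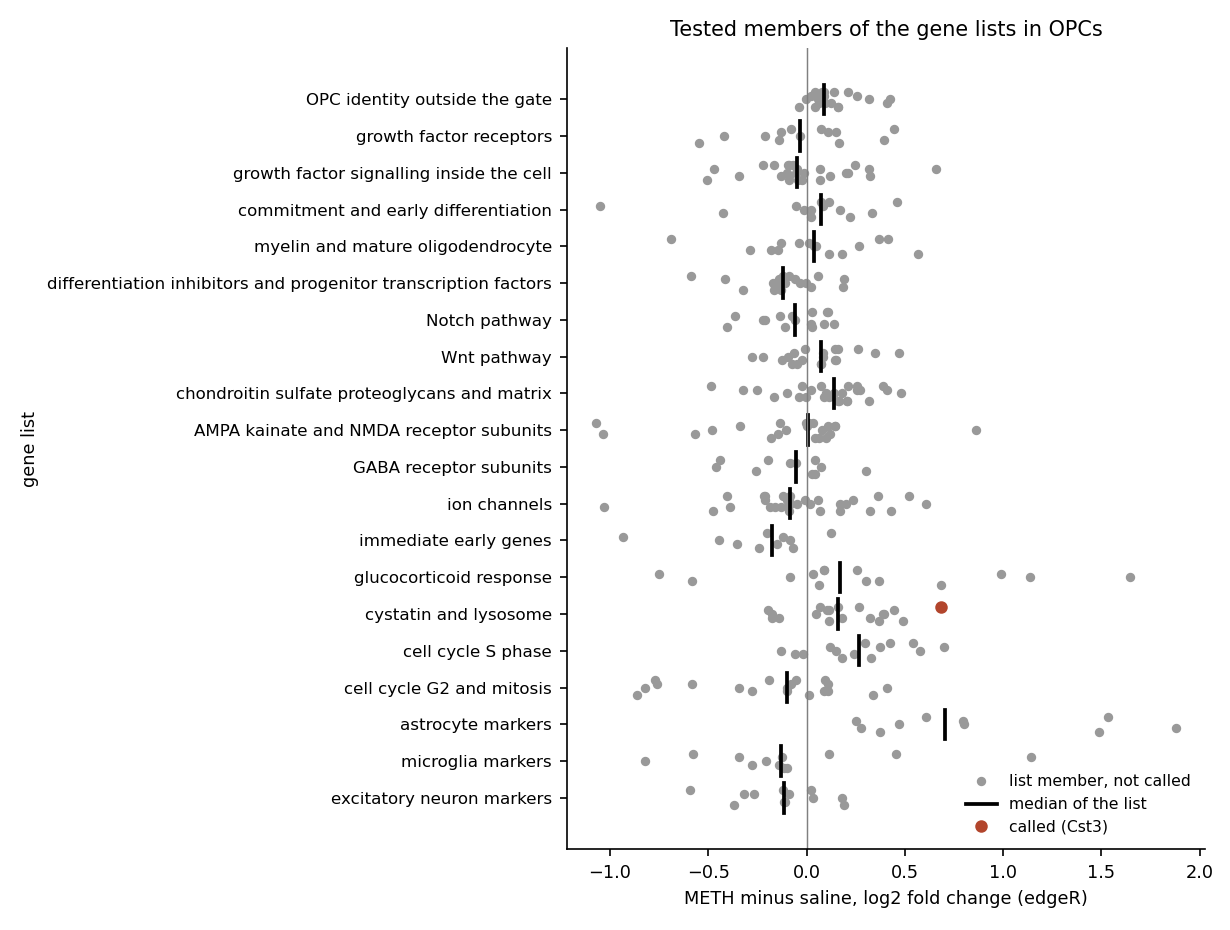
METH minus saline log2 fold change of the tested members of 20 gene lists in OPCs, with 1 grey point per gene and a black bar at the median of the list. Most medians lie within 0.2 of 0, the astrocyte markers stand to the right at 0.70, and Cst3, in red, is the only list member called.

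Whether the METH difference in OPCs differed from that in related populations was tested by the interaction of population and treatment, with the library as a block, on counts summed per library and population. Against mature oligodendrocytes 1 of 10533 genes differed (0.00949%). Cntnap5c differed from saline by -1.26 on the log2 scale in OPCs and by 1.14 in mature oligodendrocytes, neither of which passed on its own, and the difference between them was -2.31 (SE 0.387, edgeR adjusted p = 0.0271). Against astrocytes 2 of 9551 genes differed (0.0209%). Itih3 differed by 1.99 (SE 0.370, edgeR adjusted p = 0.0131) and Prodh1 by 3.61 (SE 0.703, edgeR adjusted p = 0.0154); in astrocytes themselves the 2 genes differed by -0.09 and 0.17. These calls did not hold throughout: of 9 alternatives Cntnap5c passed in 4, Itih3 in 2 and Prodh1 in 3. Cntnap5c did not pass without either METH replicate, Itih3 did not pass without any 1 library, and Prodh1 passed with METH replicate 2 left out but not with any other library left out. Without the nuclei of the highest doublet scores the interactions were -1.28, 0.42 and 2.13, and none passed. Neither mature oligodendrocytes nor astrocytes had a gene called by edgeR for METH against saline, of 9360 and 7250 tested, with 291 and 300 at an unadjusted p under 0.05.

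For Cst3 the METH difference did not differ detectably between the populations. It was 0.68 in OPCs, 0.98 in mature oligodendrocytes and 0.48 in astrocytes on the log2 scale, and the interactions were -0.31 (SE 0.212) and 0.19 (SE 0.211). For Cables1 the corresponding values were 0.56, 0.57 and 0.53. Prex2 differed by 0.54 in OPCs, 0.50 in mature oligodendrocytes and 0.07 in astrocytes, with interactions of 0.07 (SE 0.251) and 0.45 (SE 0.227), neither of which passed.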

How the data were processed

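Nuclei of rat orbitofrontal cortex were profiled with droplet 3' chemistry, per the labels' protocols. Deposited were UMI counts per gene and barcode for each of 4 libraries, which the authors made with Cell Ranger 7.0.0, per the submitters' processing notes. Those notes name the human build hg38, whereas every one of the 25399 identifiers belongs to the rat Ensembl series; neither label nor header names a rat annotation, and no coordinates are printed. The counts are not normalized. No deposited barcode holds under 500 UMIs. No source used here says how reads of near-identical genes were treated.

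The members and gene lists were chosen with earlier results of these data known. Nuclei were selected and counts summed in Python 3.11.15 with Scanpy 1.11.5, NumPy 2.4.6, SciPy 1.17.1 and pandas 2.3.3; figures were drawn with matplotlib 3.10.9. Of the 15 selection genes, Col1a2 was not used here. No doublets were removed; an alternative left out the highest Scrublet scores, up to 0.8% per 1000 barcodes. Summed counts were tested in R 4.3.3 with edgeR 4.0.16 (glmQLFit, robust, TMM, filterByExpr), 2 METH against 2 saline libraries, with calls at an adjusted p under 0.05. The 15 selection genes count toward totals but were left out of the tests. The SE is the fold change over the square root of F. The replicate numbers are not said to pair libraries. The test was checked on counts simulated with known changes. It recovered 10.4% of log2 changes of 0.5, 51.0% of those of 1 and 92.6% of those of 2. There were 34 false calls in 5 runs. A gene that was not called may thus still differ by such amounts. DESeq2 1.42.0 and other selections, filters and scalings were tried as alternatives, and each library was left out in turn.

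Named genes were those called; with under 5 calls for a direction, its 5 genes of smallest p, without placeholder names and with groups that do not overlap; in each list the called members or the 2 with the smallest p; and a set of OPC, transmitter and stress genes whatever their result. Of 916 list genes, 887 matched a symbol.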

Additional observations from a re-analysis of the deposited data

Results flagged for a closer look

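For 3 genes the METH minus saline difference in OPCs differed from that in another population by the interaction test. Cntnap5c differed from mature oligodendrocytes by -2.31 on the log2 scale. Itih3 differed from astrocytes by 1.99 and Prodh1 by 3.61. Cntnap5c passed in 4 of 9 alternatives, Itih3 in 2 and Prodh1 in 3; without the nuclei of the highest doublet scores the values were -1.28, 0.42 and 2.13, and none passed. In OPCs alone the Cntnap5c difference of -1.26 turned to 1.36 when the OPCs were selected after thinning. Of the OPCs with a UMI, 31 of 46 for Itih3 and 21 of 33 for Prodh1 in METH, and 6 of 11 and 1 of 2 in saline, also held a UMI of the 4 genes that chose the astrocytes. The groups hold 2 libraries each.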

How the results depend on the processing

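The 3 calls in OPCs depended on the settings. The count was 0 with DESeq2, without robust estimation, with at least 1000 genes per nucleus, with at most 1% mitochondrial UMIs, and with at least 3 or at least 8 marker UMIs. It was 1 with 0 UMIs of other-type genes and with the selection after thinning, 11 with 0 UMIs of microglial selection genes (an alternative chosen after seeing the data), 18 with no filter beyond 1 count, and 2 to 161 with 1 library left out. With the replicate number as a block it was 38, 8 higher and 30 lower; the deviations of the 2 libraries with the same number had a correlation of 0.0677 over 9619 genes, and the labels do not pair them. The list members called, 1 in all, were 0 with DESeq2, without robust estimation, with at least 1000 genes, at most 1% mitochondrial UMIs, and at least 3 or 8 marker UMIs, 3 with no filter and with 0 microglial UMIs, 2 without the highest doublet scores, 9 with the block, and 1 to 37 with 1 library left out. The interaction with mature oligodendrocytes gave 0 calls with at least 1000 genes, without robust estimation and without the highest doublet scores, and 0 to 67 with 1 library left out. That with astrocytes gave 0 with at least 1000 genes and without robust estimation, 4 with no filter, and 0 to 57 with 1 library left out. In each range the highest count was without saline replicate 2. The Gpr17 difference of -0.484 percentage points was -0.983 with 0 other-type UMIs and -1.35 with at least 8 marker UMIs. The mitotic difference of 0.185 points was -1.25 with at least 1000 genes, -0.372 with 0 other-type UMIs, 1.10 with at least 8 marker UMIs, -0.675 with the selection after thinning and -1.29 with OPCs thinned. The cause was not tested. The METH minus saline difference in OPC share moved by less than 1 SD between libraries in all 13 alternatives. That SD, 2.29 points, was close to the difference of 2.34 points itself. The difference was 0.101 without saline replicate 1 and 4.57 without saline replicate 2. The SD is thus too wide for this comparison to tell whether the difference holds. Of 818 list medians under an alternative, 645 moved by less than the spread. Of 61 named genes tested, 16 were called in at least 1 of 20 alternatives. With 1 library left out of a group, the lone library is assumed to vary like the other group. Saline replicate 1, with 482218 OPC UMIs, limits the depth of the comparison.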
